A study of Populus tremula x Populus alba with 24 samples.

Results

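The comparison described here sets poplar roots sampled 30 min and 1 h after a lipochitooligosaccharide (LCO) treatment, treated as one early group, against control roots. The early group, called the pool below, holds 5 libraries chosen by their labels: LCO 30 min replicates 1 and 3, and LCO 1 h replicates 1, 2 and 3. They are set against control replicates 1, 2 and 3. These 8 libraries are part of 22 with expression values, out of 24 samples that the labels describe. LCO 30 min replicate 2 was not analysed here.

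All plants were Populus tremula x alba clone 717-1B4, a hybrid poplar that is propagated in tissue culture, so every library comes from 1 genotype. Plantlets stood for 10 days on vertical plates with Woody Plant Medium at 0.5 mM nitrogen and 7 µM phosphate, both reduced. For the pool, roots were flooded for 1 h, beginning 3 h after dawn, with 1e-08 M purified LCO of Rhizobium sp. IRBG74, and were collected 30 min or 1 h after the LCO treatment. The control roots carry the label of time 0, and a solution of 0.005% ethanol served as the control liquid. From the labels it is not certain that the control roots were flooded, or whether the clock starts with the flooding or with its end. Each library pools the roots of 4 plants. The labels describe no mock-treated roots of 30 min or 1 h, so LCO, elapsed time, time of day and possibly flooding cannot be told apart in any value below.

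LCOs are chitin backbones with a fatty acid chain that rhizobia and many mycorrhizal fungi secrete. In legumes they are recognised by receptor kinases with LysM domains at the root surface, which leads to calcium oscillations in and around the nucleus and to transcription factors that prepare the root for symbiosis. Poplar forms arbuscular mycorrhiza and ectomycorrhiza but no nodules. No table used here pairs the identifiers with gene names, so genes are given by identifier alone, without function, and the labelled tissue could not be checked against root markers.

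Gene levels are in TPM, a relative abundance corrected for transcript length that sums to nearly the same total in each library. Fold changes are differences of mean log2(TPM + 1), pool minus control, so those of genes at low levels are smaller than the ratio of their TPM. A gene is called at an adjusted p under 0.05 in limma, with Benjamini-Hochberg adjustment over the 25636 genes whose mean reached 1 TPM. Genes named as the largest changes are those among called genes that average at least 5 TPM over all libraries and whose libraries do not overlap between the groups compared.

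The 5 libraries of the pool vary more among themselves than the 3 controls. The median SD per gene was 0.325 in the pool and 0.205 in the control on the log2 scale. At 15 min it was 0.319, at 2 h 0.185, and at 4, 8 and 24 h 0.173, 0.173 and 0.196. The fits share 1 estimate of the spread over all these groups, which for most genes may be below that of the pool. Correlations between libraries were taken across genes, which are not independent replicates. They ranged from 0.871 to 0.967 within the pool and from 0.958 to 0.972 within the control. Between pool and control libraries they ranged from 0.862 to 0.961, with a median of 0.938, against 0.933 within the pool. LCO 30 min replicate 1 and LCO 1 h replicate 1 correlated better on average with the controls (0.953 and 0.940) than with the pool (0.943 and 0.916). The remaining pool libraries correlated better with the pool. Genes listed at 0 numbered 10503 to 13313 in the pool and 10314 to 10663 in the control, a difference of means of 1525 genes (exact two-sided permutation test over libraries, p = 0.0714, smallest possible 0.0357). In a principal component analysis of the 8 libraries, LCO 30 min replicate 3, the library with most genes at 0, lay alone at 94.6 on the first axis (41.5% of the variance). The other pool libraries lay between -36.9 and 43.6 there, and the controls between -56.5 and -24.8. On the second axis (16.9%) those 4 pool libraries were all positive, the highest at 44.3, with LCO 30 min replicate 3 at -44.1 and the controls between -31.3 and -13.9. Counts from a fit with the number of genes at 0 as a covariate, and with single libraries left out, are given beside the results.

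Of 25636 genes tested, 999 (3.9%) differed between the pool and the control, 545 of them higher (2.13%) and 454 lower (1.77%). On the log2(TPM + 1) scale the falls were the larger changes. That scale shrinks a change most where the lower of the 2 levels is low, in rises and falls alike, so the counts by fold partly depend on it. Potri.002G007000, for example, averaged 10.6 TPM in the pool and 0.519 TPM in the control, at a log2 fold change of 2.92. By at least 4-fold, 23 called genes were higher (0.0897%) and 52 lower (0.203%), and by at least 10-fold 0 were higher (0%) and 15 lower (0.0585%). By limma without adjustment, 5266 genes (20.5%) had a p under 0.05. Across the whole tested set the median fold change was -0.01 on the log2 scale. The levels are quantile normalized, which gives each library nearly the same set of values. A shift shared by all genes could therefore not show in this median. In 506 of the genes called higher (1.97% of all tested) and 420 of those called lower (1.64%), the 5 pool libraries did not overlap the 3 controls. Over all tested genes the libraries did not overlap in 1412 genes upwards (5.51%) and in 1502 downwards (5.86%).

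This count rests on which libraries enter the fit. Leaving out control replicate 1, 2 or 3 gave 290, 561 and 553 genes, in that order, and the count was 2218 without LCO 1 h replicate 1. Without LCO 30 min replicate 3, the library that lies apart, it was 844. With only the 8 libraries of the pool and the control in the fit it was 242, with 99 higher and 143 lower, and 222 of these are among the 999. With the number of genes at 0 per library as a covariate it was 354, with 174 higher and 180 lower, and 320 of these are among the 999.

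**Figure D1:**
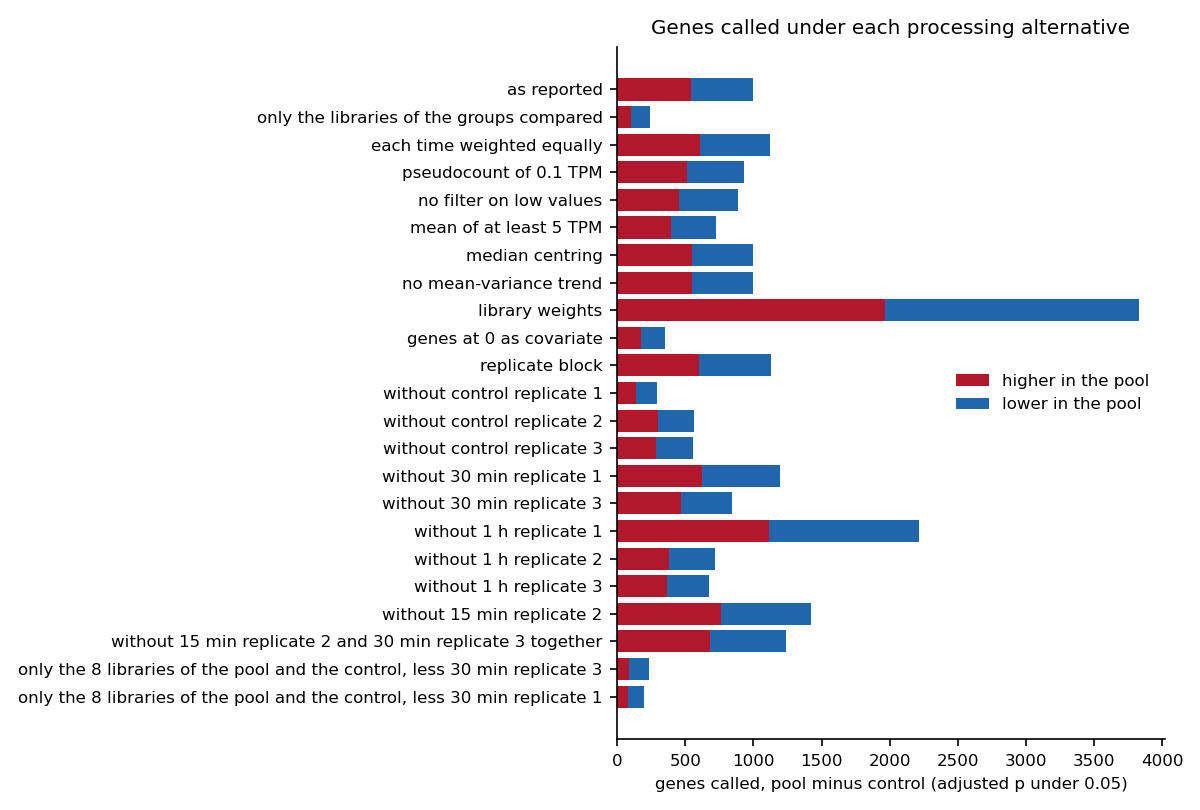
Genes called between the pool and the control under each processing choice (horizontal bars from 0, red for genes higher and blue for genes lower in the pool). The count is 999 as reported, 242 with only the 8 libraries compared and 3826 with library weights.

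The genes called lower were the more abundant ones in control roots. Their median level was 8.55 TPM in the pool and 19.5 TPM in the control, and genes called higher had medians of 14.2 TPM in the pool and 5.82 TPM in the control. Together the 454 genes called lower made up 1.44 to 1.71% of all TPM in the pool libraries and 3.74 to 4.44% in the control libraries. The 545 genes called higher made up 2.62 to 3.27% in the pool and 1.30 to 1.65% in the control. These values describe genes that were selected by the same comparison. A lower level in whole roots may mean less RNA per cell or fewer cells of a type, which cannot be told apart here. Calls were spread over all levels: 3.45% of the 8735 genes between 1 and 5 TPM were called, 3.96% of the 9515 genes between 5 and 20 TPM, 4.20% of the 5814 between 20 and 100 TPM and 4.90% of the 1572 above 100 TPM.

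**Figure D2:**
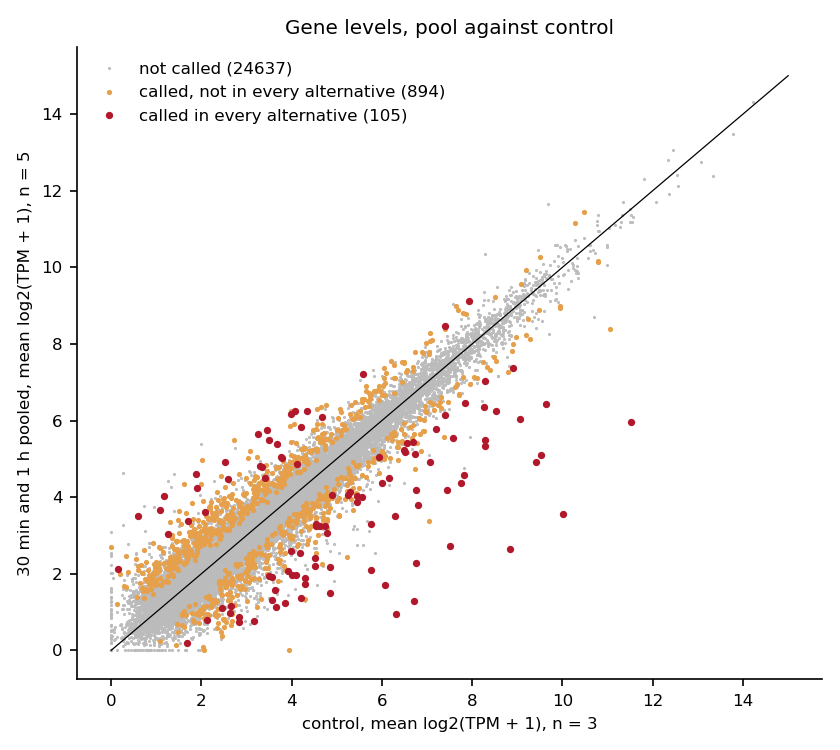
Mean level of each tested gene in the pool (vertical axis, n = 5) and in the control (horizontal axis, n = 3), both as log2(TPM + 1), with the line of equality. Of the 105 genes called in every alternative (red), 76 lie below the line and 29 above it, and the other 894 called genes are in orange.

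Potri.008G062300 showed the largest fold change of all called genes. Its levels were 8.93 and 11.6 TPM in the 30 min libraries and 12.7, 10.5 and 10.0 TPM in the 1 h libraries, and the control libraries had 1080, 929 and 1093 TPM. All 5 pool libraries lie close together and far below every control. The log2 fold change was -6.46 (limma, SE 0.31, adjusted p = 2e-10). Potri.010G195700 had 3.40 and 6.94 TPM at 30 min, with 6.56, 4.66 and 5.62 TPM at 1 h, while its control libraries held 505, 329 and 580 TPM. The pool averaged 5.44 ± 1.44 TPM and the control 471 ± 129 TPM (SD, n = 5 and n = 3), a log2 fold change of -6.19 (limma, adjusted p = 9.38e-11). In absolute terms Potri.006G223900 lost most: it had 65.3 ± 26.4 TPM in the pool and 3018 ± 984 TPM in the control (log2 fold change -5.54, limma, adjusted p = 3.09e-09). Its pool libraries ranged from 43.6 to 109 TPM and its control libraries from 2104 to 4059 TPM. The low level of these 3 genes is not particular to the pool. At 15 min, 2 h and 24 h Potri.008G062300 averaged 8.54, 5.34 and 3.35 TPM. Potri.010G195700 averaged 4.81, 2.71 and 1.72 TPM, and Potri.006G223900 67.5, 36.4 and 13.2 TPM. None was called between the pool and 15 min or 2 h (limma, adjusted p of 0.184 to 0.938).

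By the naming rule Potri.002G007000 led the genes that rose. Over all called genes the largest log2 fold change upwards was 2.96. The 30 min libraries had 11.2 and 10.2 TPM, the 1 h libraries 13.3, 8.15 and 10.1 TPM and the controls 0.428, 0.560 and 0.569 TPM. No pool library came near the controls, and the 2 times gave almost the same mean, 10.7 TPM at 30 min and 10.5 TPM at 1 h. The log2 fold change was 2.92 (limma, SE 0.22, adjusted p = 1.38e-07). Potri.002G191900 had 15.8 and 10.9 TPM at 30 min, with 27.2, 14.2 and 12.9 TPM at 1 h, and its controls held 0.693, 1.04 and 2.33 TPM. LCO 1 h replicate 1 was the highest library, and the lowest pool library was above the highest control (log2 fold change 2.86, limma, adjusted p = 3.07e-06). These 5 genes, the 3 that fell and the 2 that rose, kept their calls in all 22 alternatives.

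The largest rise in absolute level was that of Potri.019G038301, at 2847 ± 668 TPM in the pool and 1466 ± 386 TPM in the control (SD, n = 5 and n = 3). Its pool libraries had 2584, 2584, 2035, 3299 and 3732 TPM, all above the control libraries at 1065, 1836 and 1497 TPM. Both 30 min libraries share 1 value because quantile normalization gives genes of equal rank the same level. The log2 fold change was 0.96 (limma, adjusted p = 0.0328). The call was lost in 9 of 22 alternatives, among them without control replicate 1 (0.243), control replicate 3 (0.0743), LCO 1 h replicate 2 (0.0735) or LCO 1 h replicate 3 (0.0769), all adjusted p in limma.

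**Figure D3:**
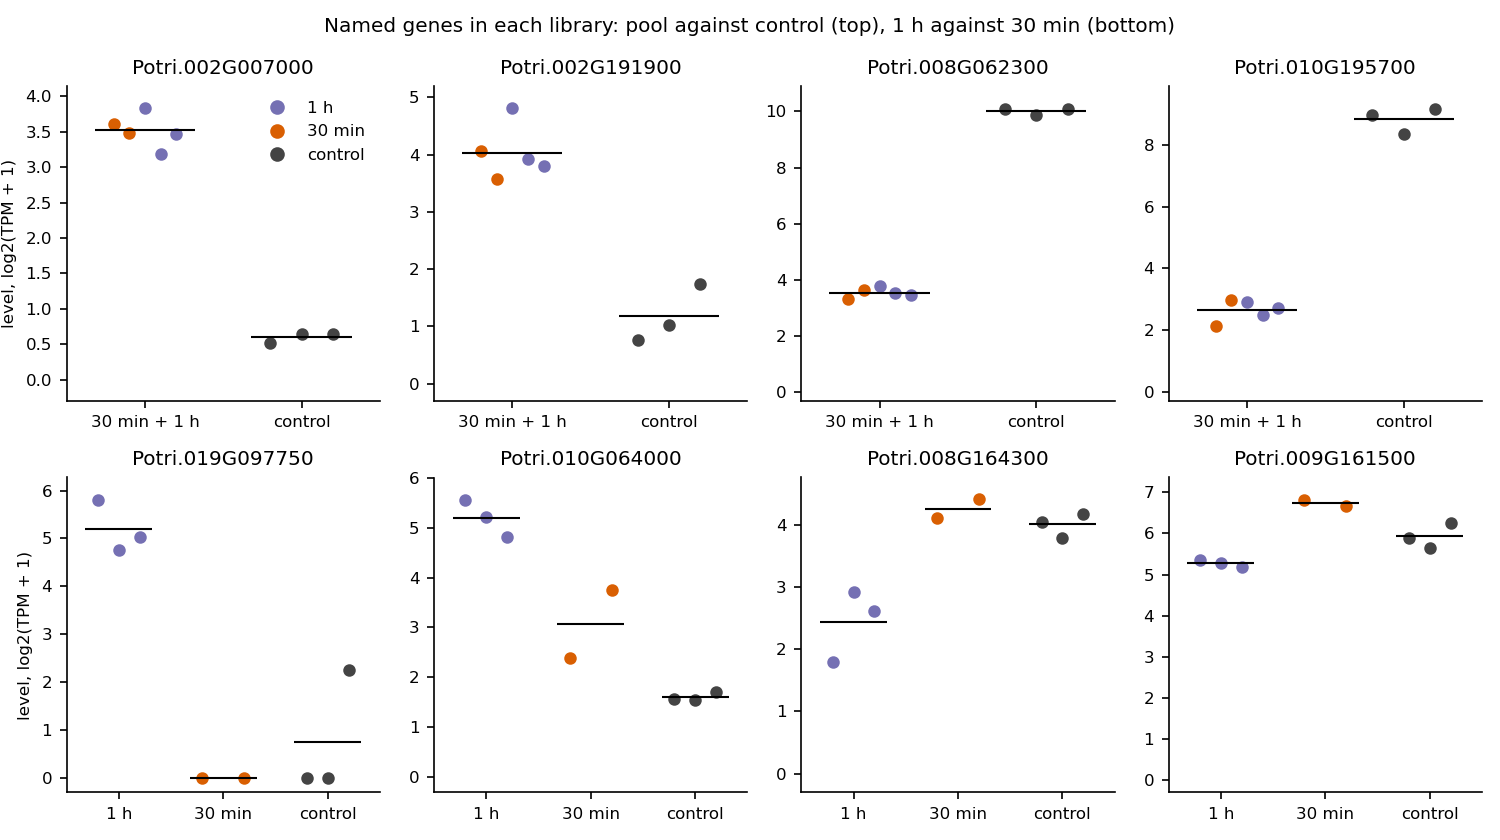
Level of 8 named genes in each library, as log2(TPM + 1), with points for libraries and lines for means. In the top row (30 min and 1 h together, left, against control, right) no pool library overlaps the controls, and in the bottom row (1 h, 30 min, control) the 1 h libraries lie apart from the 30 min libraries.

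A narrower set of genes was called in the same direction in every one of the 22 processing alternatives that tested it. It holds 105 genes, 29 higher and 76 lower, and was chosen after the values were seen, so that it is a description. The median log2 fold change was 1.77 for the 29 genes and -2.05 for the 76 genes. In these 76 genes the median level was 9.01 TPM in the pool and 53.0 TPM in the control, and 13 of them were at least 10-fold lower. The 29 genes had medians of 31.5 TPM in the pool and 9.71 TPM in the control.

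The values in each of the 5 pool libraries are given as a description, since genes that stay called with any library left out tend to vary little between libraries. For the 29 genes the median log2 difference from the control mean was 1.59 and 1.78 in the 30 min libraries and 2.10, 1.71 and 1.69 in the 1 h libraries. For the 76 genes it was -1.96 and -1.98 at 30 min and -1.80, -1.93 and -2.11 at 1 h. Over all 545 genes called higher it ranged from 0.74 in LCO 30 min replicate 1 to 1.05 in LCO 30 min replicate 3, and over the 454 called lower from -0.81 to -1.16 in the same 2 libraries.

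The other times, which are measured against the same 3 controls, are set beside these values without a test. In time order from 15 min to 24 h, the median log2 difference of the 29 genes was 1.67, 1.64, 1.87, 1.15, 0.04, -0.39 and -0.81. That of the 76 genes was -1.98, -2.11, -1.97, -2.29, -2.43, -2.53 and -2.51. The median over all tested genes stayed between -0.02 and 0.05, where quantile normalization leaves a shift shared by all genes no room to show. The median of the 29 genes was near the control level at 4 h and below it at 8 h and 24 h, and that of the 76 genes was low at every time. For Potri.002G007000 the mean was 9.79 TPM in the 15 min libraries, 5.58 TPM in those of 2 h, 2.89 TPM in those of 4 h and 1.24 TPM in those of 24 h, which is above its control mean of 0.519 TPM.

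**Figure D4:**
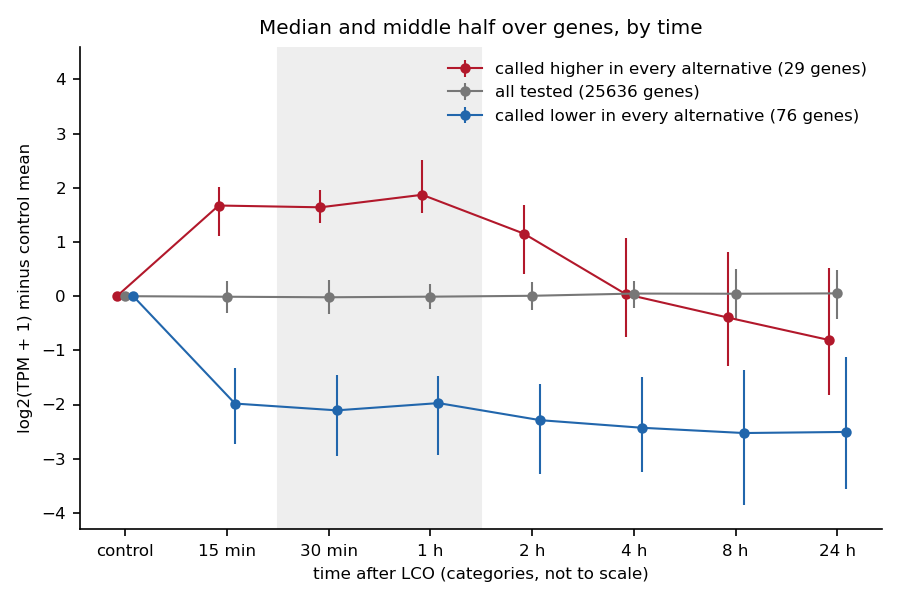
Median difference from the control mean, log2(TPM + 1), over the 29 genes called higher (red), the 76 called lower (blue) in every alternative and all tested genes (grey), with bars from the lower to the upper quartile and the pooled times shaded. The red median is 1.87 at 1 h and 0.04 at 4 h, while the blue one stays between -1.97 and -2.53 after the control.

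Whether the 2 pooled times can be treated alike was asked by comparing 1 h directly with 30 min, where other libraries enter only the estimate of spread. Of 25636 genes, 12 (0.0468%) differed, 7 higher (0.0273%) and 5 lower (0.0195%) at 1 h, and 2097 (8.18%) had an unadjusted p under 0.05. Of the 545 genes called higher in the pool, 2 are among these 12, and none of the 454 called lower is. With 2 and 3 libraries a small count does not show that the times are alike. The count moved most with the 30 min pair: 1499 genes were called without LCO 30 min replicate 1 and 2 without LCO 30 min replicate 3, 4, 5 and 5 without LCO 1 h replicate 1, 2 or 3, 7 without control replicate 1 or 2, and 26 without LCO 15 min replicate 2. With only the libraries of the 2 times in the fit, and with library weights, limma called 0 genes, with 750 and 789 genes at an unadjusted p under 0.05, and with genes at 0 as a covariate it called 25.

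Potri.019G097750 led the genes higher at 1 h. It was listed at 55.0, 26.1 and 31.6 TPM at 1 h and at 0 in both 30 min libraries, and at 0, 0 and 3.80 TPM in the control (limma, adjusted p = 0.0118). Its call was lost in 4 of 19 alternatives, with adjusted p values in limma of up to 0.282, and without LCO 30 min replicate 3 the value was 0.0856. Potri.010G064000 reached 46.1, 36.3 and 27.2 TPM at 1 h, against 4.24 and 12.4 TPM at 30 min, a log2 difference of 2.13 (limma, SE 0.35, adjusted p = 0.0337). The controls had 1.94 to 2.25 TPM, and the gene was also called in the pool (log2 fold change 2.74, limma, adjusted p = 0.00293). The call between the times was lost in 9 of 19 alternatives, with adjusted p values in limma of up to 0.999, among them without LCO 1 h replicate 1, 2 or 3 (0.124, 0.0880 and 0.0535) and without control replicate 1 or 2 (0.0549 and 0.0571).

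In the other direction, Potri.008G164300 was at 2.47, 6.56 and 5.10 TPM at 1 h, against 16.2 and 20.2 TPM at 30 min, where it was near its control levels of 12.8 to 17.1 TPM. The log2 difference was -1.81 (limma, adjusted p = 0.0239). The call was lost in 7 of 19 alternatives, with adjusted p values in limma of up to 1, among them 0.320 without LCO 30 min replicate 3, 0.0509 without LCO 1 h replicate 1 and 0.0535 without LCO 1 h replicate 3. Potri.009G161500 was at 39.6, 38.2 and 35.4 TPM at 1 h, against 112 and 101 TPM at 30 min and 48.9 to 75.3 TPM in the control. The 30 min libraries thus lay above the controls and the 1 h libraries below them, and the pool was not called against the control (log2 fold change -0.06, limma, adjusted p = 0.933). The difference between the times (-1.47, limma, adjusted p = 0.0481) missed the threshold in 13 of 19 alternatives, with adjusted p values of up to 1, among them without any single library of either time other than LCO 30 min replicate 1, with adjusted p values in limma of 0.0989 to 0.307, and without control replicate 1 (0.0830) or control replicate 2 (0.0571).

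Pooling brought in genes that neither time reached alone. With 1 mean per time, 456 genes (1.78%) were called at 30 min and 739 (2.88%) at 1 h against the same controls. Single libraries moved these counts: that of 30 min was 129, 258 and 251 without control replicates 1, 2 and 3, 4501 and 83 without LCO 30 min replicates 1 and 3, and 780 without LCO 15 min replicate 2. That of 1 h was 330 and 425 without control replicates 1 and 3, and 461 without either LCO 1 h replicate 2 or 3. Of the 999 genes called in the pool, 242 were called at both times, 98 at 30 min only, 337 at 1 h only and 322 at neither. Conversely, 276 genes called at a single time were not called in the pool. The 322 genes comprise 182 higher and 140 lower, and the number was between 62 (without control replicate 1) and 1181 (without LCO 1 h replicate 1) when single libraries were left out. It was also 144 and 191 without control replicates 2 and 3, and 109 and 139 without LCO 30 min replicates 1 and 3. With only the 8 libraries it was 101, and with genes at 0 as a covariate 61.

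The genes named from these 322 lost their calls in many alternatives. Potri.014G095000 was listed at 3.32, 6.85, 5.27, 3.56 and 4.30 TPM in the pool, and its controls at 0, 1.03 and 0 TPM (limma, adjusted p = 0.0369). Every pool library lies above the controls, but the levels are low. Potri.006G092500 was at 20.4, 37.4, 17.1, 18.1 and 23.9 TPM in the pool, against 2.85, 6.12 and 4.80 TPM in the control (log2 fold change 2.11, limma, adjusted p = 0.0437).

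Genes lower in the pool were Potri.005G119400, listed at 17.8, 14.8, 65.0, 5.20 and 0 TPM in the pool with controls of 200.2, 120 and 92.1 TPM (limma, adjusted p = 0.0456), and Potri.001G400100. The second gene was at 393, 176, 531, 358 and 331 TPM in the pool, against 3499, 1741 and 1584 TPM in the control (log2 fold change -2.66, limma, adjusted p = 0.0318). These 4 genes lost their calls in 8, 12, 13 and 9 of 22 alternatives, in the order given. All of them missed the threshold without control replicate 1 (adjusted p in limma 0.201, 0.236, 0.229 and 0.206). Control replicate 3, LCO 30 min replicate 3, LCO 1 h replicate 2 and LCO 1 h replicate 3 each ended all 4 calls when left out, with adjusted p values in limma of 0.0547 to 0.110. Without control replicate 2 the last 3 genes missed it too (0.0823, 0.114 and 0.0734), and without LCO 30 min replicate 1 Potri.006G092500 did (0.0529).

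The transcript table was tested in the same way. Of 29885 transcripts, 705 (2.36%) differed between the pool and the control, 366 higher (1.22%) and 339 lower (1.13%). They belong to 693 genes, of which 617 were also called as genes. The count was 211, 398 and 415 without control replicates 1, 2 and 3. Without LCO 1 h replicates 1, 2 and 3 it was 1655, 466 and 465, and without LCO 15 min replicate 2, which enters only through the shared spread, it was 1095. With only the 8 libraries it was 168, and with genes at 0 as a covariate 252. Among transcripts higher in the pool, transcript 3 of Potri.014G129000 came first, with 11.6, 104, 15.7, 37.7 and 76.1 TPM in the pool against 0, 0.0453 and 4.30 TPM in the control (log2 fold change 4.37, limma, adjusted p = 0.0190). The adjusted p in limma was 0.140 without control replicate 1 and 0.0938 without control replicate 2. Potri.001G409900 transcript 4 was next, with 22.2, 51.3, 3.21, 33.8 and 35.3 TPM in the pool against 0, 3.10 and 0.0346 TPM in the control (3.83, limma, adjusted p = 0.0361). Its lowest pool library lies just above the highest control, and its call was lost in 8 of 20 alternatives, with adjusted p values in limma of up to 0.295. Leaving out control replicate 1 or 3, LCO 30 min replicate 3, or LCO 1 h replicate 2 or 3 ended that call. First among transcripts lower in the pool were transcript 1 of Potri.008G062300 (log2 fold change -6.49) and transcript 1 of Potri.010G195700 (-6.21), with adjusted p values of 9.71e-10 and 5.59e-10 in limma.

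Potri.002G228900 changed its main transcript in all 5 pool libraries while its total level was not called. Transcript 1 had 0.0719 and 0.358 TPM at 30 min, with 0.172, 0.113 and 0.274 TPM at 1 h, and the controls held 8.30, 13.8 and 14.1 TPM of it. Transcript 5 had 11.1 and 13.7 TPM at 30 min, with 16.5, 13.2 and 11.9 TPM at 1 h, and the controls held 5.69, 0.104 and 0.0707 TPM of it. Neither transcript overlaps between pool and control, and control replicate 1 is the control with most of transcript 5. The log2 fold changes were -3.42 for transcript 1 (limma, SE 0.16, adjusted p = 6.85e-10) and 2.83 for transcript 5 (limma, SE 0.49, adjusted p = 0.00431). The gene as a whole had 11.3 to 16.7 TPM in the pool and 13.7 to 14.2 TPM in the control (log2 fold change -0.06, limma, adjusted p = 0.798).

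Transcript 5 made up 97.4 to 99.4% of this gene in the pool, 0.499 to 40.7% in the control and at most 15.1% in the 14 libraries of the other times. The switch was also present against the neighbouring times, in tests chosen after the values were seen, where 9.07% of transcripts were called against 15 min and 1.31% against 2 h. Transcript 1 was lower in the pool than at 15 min (-3.50, limma, adjusted p = 9.05e-10) and than at 2 h (-3.78, limma, adjusted p = 2.57e-09). Transcript 5 was higher than at 15 min (3.56, limma, adjusted p = 0.00183) and than at 2 h (3.24, limma, adjusted p = 0.00835). Transcript 1 kept its 3 calls in every alternative run. Transcript 5 missed the threshold against the control with only the 8 libraries in the fit (limma, adjusted p = 0.0873), and against 2 h without LCO 2 h replicate 1 (0.0761) or 2 (0.133) or with a pseudocount of 0.1 TPM (0.0838). Reads common to both transcripts are divided by an estimate whose error is not in the deposited values, and how far it shapes this switch was not tested.

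**Figure D5:**
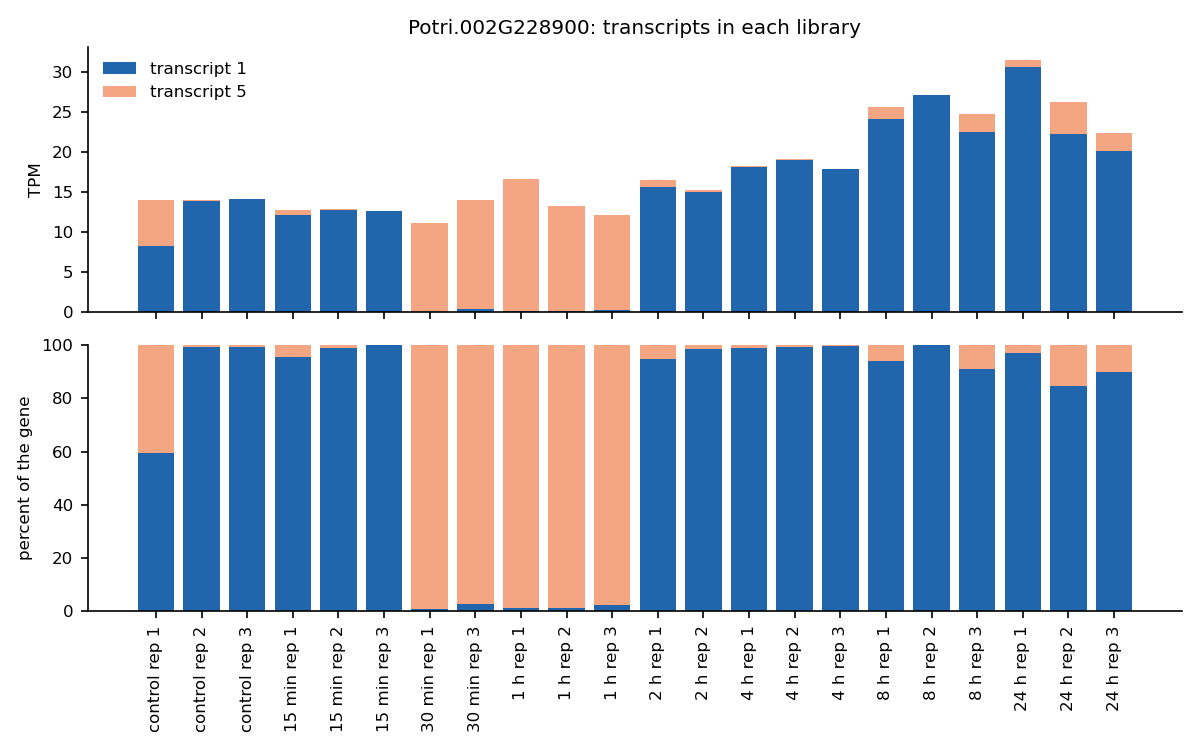
Level in TPM (top) and share in percent (bottom) of transcripts 1 (blue) and 5 (orange) of Potri.002G228900 in each of the 22 libraries. Transcript 5 makes up 97.4 to 99.4% of the gene at 30 min and 1 h and at most 40.7% in every other library.

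In all, 7 of the 3792 genes that have 2 or more tested transcripts carried opposite calls in the pool, and 12 genes had 2 or more called transcripts. None of the 7 was called as a gene, with adjusted p values in limma of 0.0860 to 0.798. In 6 of them the pool libraries did not overlap the controls for either transcript, and in Potri.002G106500 they overlapped for both. Most called features do not overlap: among genes it was 506 of the 545 called higher and 420 of the 454 called lower. The share over transcripts is not given here, so the count is a description only. Potri.005G254000, chosen after its values were seen, differs from Potri.002G228900 in its course. Its transcript 2 made up 95.4 to 99.2% of the gene in the pool and 1.12 to 8.01% in the control, and it remained at 58.1 to 100.0% in the libraries of all other times. The log2 fold changes were 2.55 for transcript 2 (limma, adjusted p = 7.4e-07) and -2.47 for transcript 1 (limma, adjusted p = 0.00752).

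The pool was last compared with the times on either side of it, with controls again only in the estimate of spread. Against 15 min, 3089 genes (12%) differed, 1471 higher (5.74%) and 1618 lower (6.31%) in the pool. Against 2 h, 627 genes (2.45%) differed, 396 higher (1.54%) and 231 lower (0.901%) in the pool. Both counts moved with single libraries. The first was 136, 8185 and 501 without LCO 15 min replicates 1, 2 and 3, and 5095, 1742 and 1393 without LCO 1 h replicates 1, 2 and 3. The second was 85 and 90 without LCO 2 h replicates 1 and 2. With only the libraries compared in the fit, 6 genes were called against 15 min and 3 against 2 h, all of them among those of the full fit. With genes at 0 as a covariate the counts were 31 against 15 min and 832 against 2 h. The 15 min libraries were unlike each other. LCO 15 min replicate 2 listed 12139 genes at 0, and replicates 1 and 3 listed 9241 and 9265. Replicate 2 correlated on average at 0.942 with the pool and at 0.895 with its own group. Replicates 1 and 3 correlated better with their own group (0.921 and 0.936) than with the pool (0.870 and 0.902). How far this shapes the count of 3089 was not tested beyond these fits.

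Potri.001G309700 was higher in the pool than at 15 min. It had 24.1 ± 7.44 TPM in the pool (SD, n = 5) and 0.654 ± 0.324 TPM at 15 min (n = 3), a log2 difference of 3.88 (limma, SE 0.28, adjusted p = 5.87e-07). Its control level was 2.88 ± 1.59 TPM (SD, n = 3), and the pool was above that too (2.71, limma, adjusted p = 7.21e-06). Potri.009G062901 was listed at 13.9, 31.8, 10.9, 29.0 and 13.9 TPM in the pool and at 0 in all 3 libraries of 15 min (limma, adjusted p = 9.78e-06). It was at 6.40, 12.6 and 32.3 TPM in the control, so the pool lies in the control range.

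Potri.003G150800 was lower in the pool than at 15 min, with 25.6 ± 15.6 TPM in the pool and 113 ± 55.4 TPM at 15 min (-2.16, limma, adjusted p = 0.00712). Its 15 min libraries had 152, 49.3 and 136 TPM, and without LCO 15 min replicate 1 its adjusted p in limma was 0.0810. Potri.007G113150 was listed at 27.9, 14.4, 39.1, 6.06 and 0 TPM in the pool, and the 15 min libraries had 387, 39.6 and 123 TPM (limma, adjusted p = 0.0197). It missed the threshold without LCO 15 min replicate 1 (0.187) or 3 (0.0777).

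Potri.010G192400 was higher in the pool than at 2 h. It was at 104, 174, 57.1, 57.7 and 43.7 TPM in the pool, against 4.43 and 10.2 TPM at 2 h, a log2 difference of 3.31 (limma, SE 0.44, adjusted p = 0.000598). The pool was not called against the control, where the gene had 50.5, 50.4 and 98.9 TPM (0.27, limma, adjusted p = 0.718). Potri.013G147000 was listed at 3.14, 28.3, 21.3, 6.51 and 20.6 TPM in the pool and at 0 in both 2 h libraries (limma, adjusted p = 0.0218).

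Lower in the pool than at 2 h were Potri.010G072200 and Potri.014G061400. The first had 3.48, 1.17, 6.50, 7.08 and 12.2 TPM in the pool, against 29.9 and 32.2 TPM at 2 h (-2.42, limma, adjusted p = 0.0137). The second had 0.459, 0.344, 6.33, 0.791 and 1.58 TPM in the pool, against 10.3 and 20.5 TPM at 2 h (-2.75, limma, adjusted p = 0.0351). Without LCO 2 h replicate 1 or 2, Potri.013G147000, Potri.010G072200 and Potri.014G061400 missed the threshold (adjusted p in limma 0.135 to 0.295), while Potri.010G192400 kept its call. Potri.014G061400 also missed it without LCO 30 min replicate 1 (0.0662), LCO 30 min replicate 3 (0.0626) or LCO 1 h replicate 2 (0.0611).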

How the data were processed

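Root RNA was sequenced. Values deposited by the authors, per gene and per transcript, are on a natural log scale, ln(TPM + 1), after quantile normalization across libraries, as the table names say. Base e was settled from the values: it gives library totals of 936253 to 936552 TPM, and base 2 gives 204126 to 204330. The submitters' processing notes name kallisto and sleuth without versions. For the build nothing is stated (not given in the sources used here), and identifiers have the Potri form used for Populus trichocarpa. Read depth is unknown, so no counting interval is given, and a value of 0 is not an absence.

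Values were taken back to TPM and tested as log2(TPM + 1) in limma 3.58.1 under R 4.3.3, with a mean-variance trend, for 25636 of 42950 genes and 29885 of 63498 transcripts that average 1 TPM or more. All 22 libraries entered 1 fit with 1 mean per labelled group, 30 min and 1 h forming 1 group, and 15 residual degrees of freedom. Single times were fitted with 14. The labels call the replicates biological, each a pool of plants. The procedure was run on simulated data with 1 spread per gene in all groups and no library effects. That run does not test it under the unequal spread of these groups. The rule names, per comparison, the 2 largest rises and falls among called features that average 5 TPM or more and whose libraries do not overlap, and for the pool the largest changes in TPM. The design assumed TPM, so the logs were undone first, and its gene lists were void without gene names. Comparisons and rules were chosen with earlier results of these data known. Alternatives are given in the closing part. Python 3.11.15 with matplotlib 3.10.9 made the plots.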

Additional observations from a re-analysis of the deposited data

Results flagged for a closer look

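The effects of the 2 pooled times against the same control differed in the direct test for 4 named genes. The log2 difference, 1 h minus 30 min, was 2.13 for Potri.010G064000, -1.81 for Potri.008G164300 and -1.47 for Potri.009G161500. For Potri.019G097750, listed at 0 in both 30 min libraries, the fitted value of 5.20 depends on the pseudocount. These genes were named because they differ most between the times. In none of the named genes or transcripts did 1 of the 5 pool libraries lie apart from the others by more than 0.71 of their range on the log2 scale, a limit that chance passes in about 5% of groups.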

How the results depend on the processing

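Numbers count called genes, or transcripts where so named, and the cause of each change was not tested unless stated. Read depth is not given by the files and sets a limit that cannot be stated. With only the libraries of the groups compared, which leaves fewer degrees of freedom, 242 genes and 168 transcripts were called between pool and control. That fit gave 6 against 15 min, 3 against 2 h, 37 for 30 min and 234 for 1 h against control, and 101 at neither time alone. Between 1 h and 30 min it gave 0 by limma, with 750 at an unadjusted p under 0.05, and so did library weights, with 789. Added after seeing the data, the 8 libraries less LCO 30 min replicate 3 or 1 gave 231 and 198. Library weights gave 3826 genes and 2868 transcripts for the pool, 10627 against 15 min, 78 for 30 min and 4988 for 1 h. Genes at 0 as a covariate gave 354 genes and 252 transcripts for the pool, 31 against 15 min, 25 between the times, 164 for 30 min, 457 for 1 h and 61 at neither time. Between the times, a pseudocount of 0.1 TPM and a minimum of 5 TPM gave 6 each, and no filter gave 41. Without both 15 min replicate 2 and 30 min replicate 3, the count was 8570 against 15 min, 111 for 30 min and 1370 for 1 h. Leaving out 1 library gave 290 to 2218 genes and 211 to 1655 transcripts for the pool, 2 to 1499 between the times, 136 to 8185 against 15 min and 85 to 913 against 2 h. It gave 83 to 4501 for 30 min, 330 to 995 for 1 h and 62 to 1181 at neither time. For named genes and transcripts called as reported, 677 results came from alternatives, of which 555 kept direction and call, 122 lost the call and 0 reversed. The total of Potri.002G228900, not called, stayed uncalled in its 22 alternatives. Equal weights for both times, median centring and no variance trend left every count within 1.5 times.

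The labels give same-numbered libraries of control, 30 min and 1 h no link beyond the number. Their deviations from group means correlated from -0.00617 to 0.280 over 7 pairs, with a median of 0.191. For other pairs the range was -0.280 to 0.129, with a median of -0.123. Deviations cancel within a group, so positive correlations of same-numbered pairs push those of other pairs down. At 30 min, with 2 libraries, each correlation recurs with the opposite sign. The pairs are therefore not separate observations, and the medians of the 2 kinds of pair cannot be set against each other. The correlations of same-numbered pairs were mostly positive, and their cause was not tested. The fits reported above leave the number out. With the number as a replicate block, 1132 genes and 826 transcripts were called for the pool, 7 between the times and 761 for 30 min.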

Other observations

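Few genes went between a value of 0 and a clear level. Of 7830 genes listed at 0 in all 3 control libraries, 6 were above 0 in all 5 pool libraries, and 0 of them reached 1 TPM in each. Of 7274 genes listed at 0 in all 5 pool libraries, 78 were above 0 in all 3 controls, and 6 were at 1 TPM or more in each. The pool is larger than the control group, so that a gene is less often at 0 in all of its libraries. For the same reason a gene is less often above 0 in all of them. Pool libraries also list more genes at 0 on average, with 10503 to 13313 against 10314 to 10663 in the control. The counts of 6 and 78 are therefore not on equal terms.

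Pool libraries stood apart from the other 4 in different numbers of genes. By a gap of more than 0.71 of the range, LCO 30 min replicate 3 stood apart in 847 of the tested genes (3.30%) and LCO 1 h replicate 1 in 599 (2.34%). The numbers were 130 for LCO 30 min replicate 1, 54 for LCO 1 h replicate 2 and 161 for LCO 1 h replicate 3. The rate of about 5% at which chance passes this limit covers all 5 libraries of a group together. The share of a single library is thus not comparable with it.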
